A study of Arabidopsis thaliana with 12 samples.

Results

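WRKY transcription factors are plant proteins that bind W-box elements in promoters through a domain of the same name, made of the WRKY motif and a zinc finger. They are known as switches of immune signalling, where MAP kinase cascades act on them, and of senescence, nutrient supply and abiotic stress, and several members regulate WRKY genes themselves. In Arabidopsis roots the family has been tied to phosphate and arsenate uptake, through the repression of phosphate transporter genes, and to the response to flooding.

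The WRKY genes described here were the rows of the expression table that named 1 gene, with a symbol of WRKY followed by a number. The rule found 7 of the 16550 genes tested, WRKY6 (AT1G62300), WRKY20 (AT4G26640), WRKY22 (AT4G01250), WRKY29 (AT4G23550), WRKY41 (AT4G11070), WRKY42 (AT4G04450) and WRKY47 (AT4G01720), each with 1 row. RefSeq's table for assembly TAIR10.1, from which only names were taken, held 72 WRKY genes by symbol or synonym, so the 7 are a small and incidental sample of the family. Another 3 (WRKY53, WRKY68 and ZAP1) had rows shared with a neighbouring gene, and 62 were not analysed here, the hypoxia-linked WRKY33 and the phosphate starvation regulators WRKY75 and WRKY45 among them.

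The 12 Affymetrix arrays held root RNA of Arabidopsis thaliana Col-0, in 4 groups of 3 arrays. Plants were grown for 32 days in hydroponic culture and then treated for 7 days, to a plant age of 39 days at sampling. Control roots had neither treatment, arsenic roots had 250 µM arsenate (Na2HAsO4), hypoxia roots had hypoxic nutrient medium, and combination roots had arsenate in hypoxic medium. Replicates of a group were independent biological samples per the series text, and the oxygen content of the medium was not stated.

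Values are log2 signals after RMA, the Affymetrix summary of background correction, quantile normalization and averaging over probes. Array medians over all rows ran from 4.72 to 4.86 on hypoxia and combination arrays, and from 4.88 to 4.99 on control and arsenic arrays. First quartiles ran from 3.06 to 3.18, and replicate arrays had a Pearson's r over all genes of 0.972 to 0.991. Of 25 root cell type markers 1 was measured, EXPA7, an expansin of root hairs. It had a mean signal of 8.10 ± 0.32 (SD, n = 3) in control roots and fell with arsenate (-0.98), hypoxia (-2.72) and the combination (-3.09). Of 21 green tissue markers 3 were measured. PRK lay below the first quartile on every array, PSAN had group means of 3.00 to 3.76 and fell with arsenate (-0.76) and in the combination (-0.72), and RCA rose under hypoxia from 5.31 ± 0.17 to 5.94 ± 0.11 (SD, n = 3, adjusted p = 0.0296). The part of any change in cell makeup in the results below was not tested. In whole roots, fewer cells of a type and less RNA per cell cannot be told apart.

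Changes below are log2 differences between means of 3 arrays with the SE of a limma fit over all 12 arrays, and a gene rose or fell where the Benjamini-Hochberg adjusted p over all 16550 genes was under 0.05. Every number with the word signal is a level on the log2 scale. The signals of different genes come from different probes and are not set against each other.

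WRKY6, a senescence and defence factor that represses the phosphate exporter gene PHO1 and, under arsenate, the phosphate transporter gene PHT1;1, was higher in every treated group. Its signals were 9.94, 9.32 and 9.41 on the control arrays, 10.96, 10.50 and 10.69 with arsenate, 10.85, 10.67 and 10.24 under hypoxia, and 11.07, 10.64 and 10.72 in the combination. All 9 treated arrays lay above all 3 control arrays, and the treated groups overlapped one another. WRKY6 rose 2.23-fold with arsenate (1.16, SE 0.21, adjusted p = 0.00237), 2.04-fold under hypoxia (1.03, SE 0.21, adjusted p = 0.00377) and 2.38-fold in the combination (1.25, SE 0.21, adjusted p = 0.000758).

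The order of WRKY6 levels was control, hypoxia, arsenic, combination, and only the lowest step passed. Arsenic and hypoxia roots differed by -0.13 (95% interval -0.59 to 0.33), and combination roots stood 0.09 above arsenic roots (-0.37 to 0.55) and 0.22 above hypoxia roots (-0.24 to 0.68). The sum of the separate changes would have been larger than the change seen in the combination. That shortfall, the interaction, was -0.94 (SE 0.30) and did not pass (adjusted p = 0.129).

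**Figure D1:**
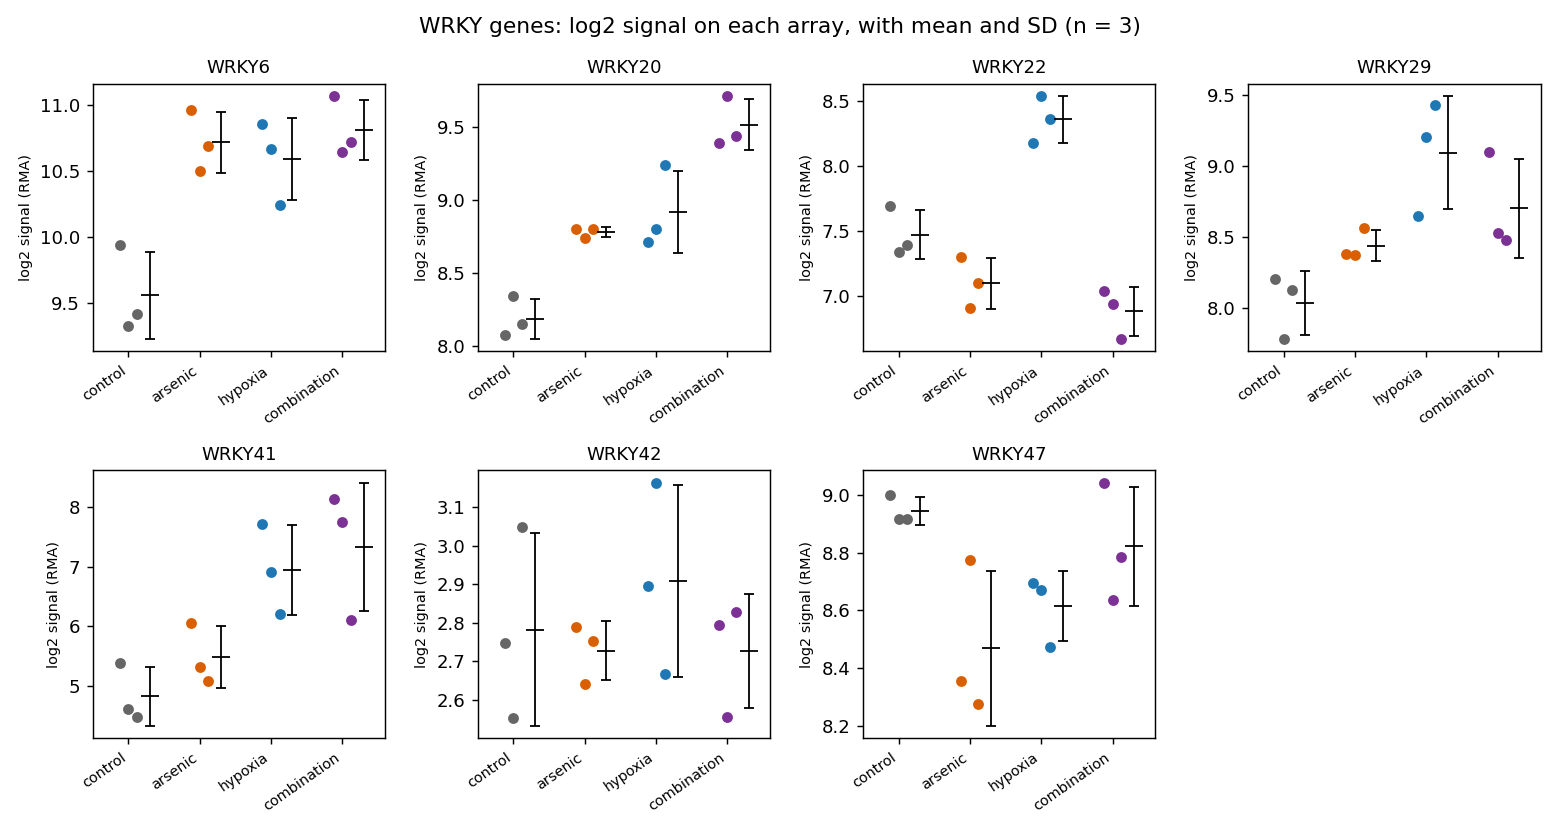
Log2 signal of the 7 WRKY genes on each array (points, left to right replicate 1 to 3) by group, with the mean and SD of 3 arrays beside them; each panel has its own scale, which does not start at 0. WRKY6, WRKY20 and WRKY29 were higher on all treated arrays than on the control arrays, though the WRKY29 change with arsenate did not pass. WRKY22 was highest under hypoxia (8.18 to 8.54) and lowest in the combination (6.67 to 7.03), and WRKY42 stayed between 2.55 and 3.16.

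WRKY20, a group I member, which carries a pair of WRKY domains, rose with each treatment, and its level was highest with both. Its signals were 8.07, 8.34 and 8.15 in control roots, 8.80, 8.74 and 8.80 with arsenate, 8.71, 8.80 and 9.24 under hypoxia, and 9.39, 9.71 and 9.43 in the combination. No control array reached a treated array, arsenic and hypoxia arrays overlapped, and the combination arrays lay above all others. The rises against control were 1.51-fold with arsenate (0.59, SE 0.16, adjusted p = 0.0226), 1.66-fold under hypoxia (0.73, SE 0.16, adjusted p = 0.00574) and 2.51-fold in the combination (1.33, SE 0.16, adjusted p = 6.24e-05).

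In the order control, arsenic, hypoxia, combination, the step from arsenic to hypoxia was 0.14 (95% interval -0.21 to 0.49, adjusted p = 0.588). For WRKY20 the change in the combination was close to the sum of the separate changes, with an interaction of 0.00 (SE 0.23, 95% interval -0.49 to 0.50, adjusted p = 0.998). Hypoxia added to arsenate raised it by 0.73 (SE 0.16, adjusted p = 0.0105). Arsenate added to hypoxia gave 0.60 (SE 0.16), which did not pass over all genes (adjusted p = 0.0636) but did with trend and robust variances (0.0340), with dim genes left out (0.0436) and without hypoxia 3 (0.0311). The rise with arsenate alone was small, and its adjusted p went to 0.0827 without control 1, 0.0705 without control 3, 0.0649 without arsenic 1 and 0.0723 without arsenic 3. The rise from arsenic to combination roots missed the threshold without combination 2 (adjusted p = 0.0553).

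WRKY22 and WRKY29 are close relatives that act downstream of a MAP kinase cascade in the response to bacterial flagellin, and WRKY22 has also been tied to immunity during submergence. WRKY22 rose with hypoxia alone and fell when arsenate was present as well. Its signals were 7.69, 7.34 and 7.39 in control roots, 7.29, 6.90 and 7.09 with arsenate, 8.18, 8.54 and 8.36 under hypoxia, and 7.03, 6.94 and 6.67 in the combination. Hypoxia arrays lay above every other array, whereas arsenic and combination arrays lay below all control arrays and overlapped each other.

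WRKY22 rose 1.85-fold under hypoxia (0.89, SE 0.17, adjusted p = 0.00201) and fell 1.51-fold in the combination (-0.59, SE 0.17, adjusted p = 0.0180). With arsenate alone its change of -0.37 (SE 0.17) did not pass (adjusted p = 0.151). Between the hypoxic groups, arsenate lowered it 2.79-fold (-1.48, SE 0.17, adjusted p = 0.00154), and hypoxia roots exceeded arsenic roots 2.4-fold (1.26, SE 0.17, adjusted p = 0.000255). From the lowest level up the order was combination, arsenic, control, hypoxia, with only the last step past the threshold. Hypoxia added to arsenate gave -0.22 (95% interval -0.58 to 0.14, adjusted p = 0.468), against a rise of 0.89 without arsenate.

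The difference between these effects of hypoxia was tested as the interaction, which was -1.10 for WRKY22 (SE 0.24, adjusted p = 0.0266), the 1 WRKY gene of 7 that passed. Of all genes 2.76% passed, 1.34% with a positive and 1.43% with a negative value. The size held when single arrays were left out (-1.21 to -0.998), but the call did not. It was lost without control 2 or 3, arsenic 1 or 3, hypoxia 2, or combination 2 or 3 (adjusted p from 0.0524 to 0.0832), and with all rows of the table tested (0.0525). The fall in the combination against control was lost without control 1 (adjusted p = 0.0803) and combination 3 (0.0729) and with arrays re-centred on their medians (0.0505). The rise under hypoxia and the fall from hypoxia to combination passed without any single array.

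**Figure D2:**
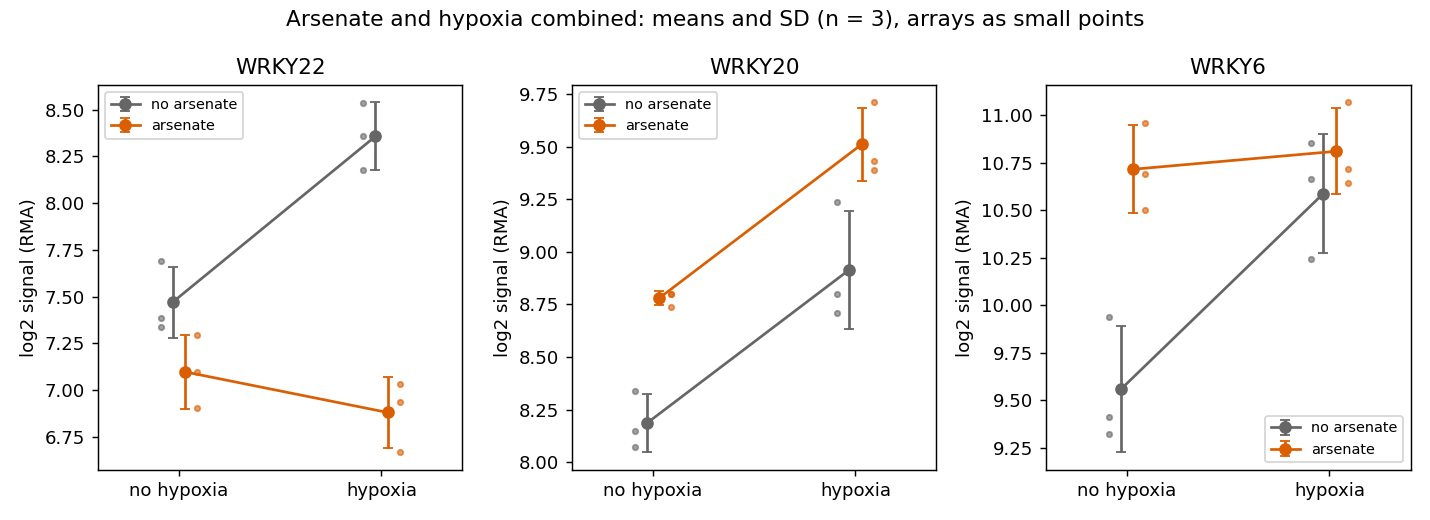
Log2 signal of WRKY22, WRKY20 and WRKY6 without and with hypoxia (x axis), in roots without arsenate (grey) and with arsenate (orange); large points are means, bars the SD of 3 arrays and small points the arrays, on scales that do not start at 0. The lines of WRKY22 diverge (interaction -1.10), those of WRKY20 run in parallel (0.00), and those of WRKY6 come together (-0.94, adjusted p = 0.129).

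WRKY29 rose under hypoxia and in the combination. Its signals were 8.20, 7.78 and 8.12 in control roots, 8.38, 8.37 and 8.56 with arsenate, 8.65, 9.20 and 9.43 under hypoxia, and 9.10, 8.53 and 8.47 in the combination. All treated arrays lay above the control arrays, hypoxia arrays lay above arsenic arrays, and combination arrays overlapped both. The rise was 2.09-fold under hypoxia (1.06, SE 0.22, adjusted p = 0.00392) and 1.59-fold in the combination (0.67, SE 0.22, adjusted p = 0.0389), and 0.40 with arsenate did not pass (SE 0.22, adjusted p = 0.252).

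In the order of WRKY29 levels, which ran control, arsenic, combination, hypoxia, no step between neighbours passed (adjusted p = 0.252, 0.510 and 0.360 from the lowest up). Hypoxia roots exceeded arsenic roots by 0.66 (SE 0.22, adjusted p = 0.0496), a call that was lost in 10 of 12 fits without 1 array, all but those without hypoxia 1 and combination 1, and with all rows tested (adjusted p = 0.0697) or those groups alone (0.0735). The rise in the combination was lost in 7 of 12 such fits, those without any control array, arsenic 2 or 3, or combination 1 or 2 (adjusted p from 0.0506 to 0.150), and with all rows tested (0.0608). The interaction of -0.80 (SE 0.31) did not pass (adjusted p = 0.217) but did with array weights (-1.06, adjusted p = 0.0444). A difference between WRKY29 and WRKY22 in their response to the combination was not tested.

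WRKY41, a group III member known from seed dormancy and from the response to flagellin, had the largest rises of the 7 genes under hypoxia and in the combination, and the widest spread in every group. Its signals were 5.39, 4.61 and 4.48 in control roots, 6.06, 5.32 and 5.08 with arsenate, 7.72, 6.91 and 6.20 under hypoxia, and 8.14, 7.76 and 6.10 in the combination. Every array under low oxygen, with or without arsenate, lay above every other array, while control and arsenic arrays overlapped. In each group the signal was highest on replicate 1 and lowest on replicate 3, so the spread followed the replicate number. With a replicate block in the limma fit the adjusted p was 0.000114 under hypoxia and 0.0932 with arsenate. Whether arrays of the same number share a source of variation is not settled. WRKY41 rose 4.33-fold under hypoxia (2.115, SE 0.50, adjusted p = 0.00832) and 5.69-fold in the combination (2.51, SE 0.50, adjusted p = 0.00232), and 0.66 with arsenate did not pass (95% interval -0.42 to 1.74, adjusted p = 0.429).

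With arsenate present, hypoxia raised WRKY41 by 1.85 (SE 0.50, adjusted p = 0.0299), a call lost without arsenic 2 or 3 or combination 1 or 2 (adjusted p from 0.0881 to 0.121) and with all rows tested (0.0576). The effect of arsenate among hypoxic roots was 0.39 (95% interval -0.69 to 1.47, adjusted p = 0.720) and the interaction -0.27 (SE 0.71, adjusted p = 0.892). Hypoxia roots stood 1.45 above arsenic roots (SE 0.50), which just missed the threshold (adjusted p = 0.0543). That step passed in 7 of 8 other settings but in only 4 of 12 fits without 1 array (adjusted p from 0.0174 to 0.174). Its call therefore depends on the setting and on single arrays. In the order control, arsenic, hypoxia, combination it lies between a step of 0.66 and one of 0.39 that did not pass.

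WRKY42 and WRKY47 belong with WRKY6 to group IIb, and neither rose or fell in any of the 7 comparisons. WRKY42, which represses PHO1 and activates PHT1;1, had signals of 2.75, 2.55 and 3.05 in control roots, 2.79, 2.64 and 2.75 with arsenate, 2.90, 3.16 and 2.67 under hypoxia, and 2.80, 2.56 and 2.83 in the combination. All 12 values lay below the first quartile of their array and the groups overlapped. The table gives no detection call, so a change at this signal may not have been measurable. Its changes against control were -0.06 (95% interval -0.42 to 0.31), 0.13 (-0.24 to 0.49) and -0.06 (-0.42 to 0.31) with arsenate, hypoxia and both.

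WRKY47, a factor tied to cell wall genes and aluminium tolerance, had its highest mean in control roots. Its signals were 9, 8.92 and 8.92 in control roots, 8.35, 8.78 and 8.28 with arsenate, 8.70, 8.67 and 8.47 under hypoxia, and 9.04, 8.64 and 8.78 in the combination. All arsenic and all hypoxia arrays lay below the control arrays, and the combination arrays overlapped them. The changes were -0.48 with arsenate (SE 0.16, adjusted p = 0.0615), -0.33 under hypoxia (SE 0.16, adjusted p = 0.158) and -0.12 in the combination (95% interval -0.47 to 0.23, adjusted p = 0.614). The interaction was 0.68 (SE 0.23, adjusted p = 0.146). The fall with arsenate did pass with quantile normalization again (adjusted p = 0.0461), with trend and robust variances (0.0362), with array weights (0.0135), with dim genes left out (0.0411) and without arsenic 2 (0.0217).

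**Figure D3:**
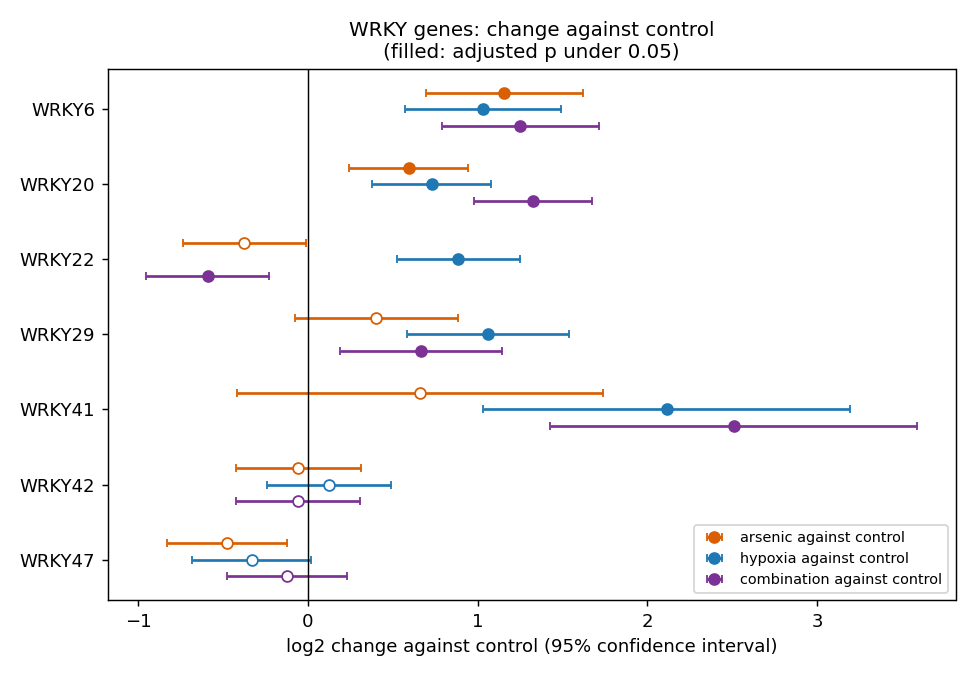
Log2 change of the 7 WRKY genes against control (points) with 95% confidence intervals from the limma fit, for arsenate (orange), hypoxia (blue) and the combination (purple); filled points passed at an adjusted p under 0.05. WRKY6 and WRKY20 passed in all 3 comparisons, WRKY22 in opposite directions under hypoxia (0.89) and in the combination (-0.59), and WRKY42 and WRKY47 in none.

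Over the 7 genes, 2 rose and 0 fell with arsenate in the limma fit, where WRKY22 (unadjusted p = 0.0432) and WRKY47 (unadjusted p = 0.0119) were lower before adjustment. Of all genes 17.9% passed there, 8.34% higher and 9.58% lower, and the median change was 0.40 over the WRKY genes against -0.01 over all genes. Under hypoxia 5 rose and 0 fell, none of the 7 being lower at an unadjusted p under 0.05 either. Of all genes 24.5% passed, 10.8% higher and 13.7% lower, with medians of 0.89 and 0.07. In the combination 4 rose and 1 fell. Of all genes 27.7% passed, 13% higher and 14.6% lower, with medians of 0.67 and 0.09. The comparisons with control share the control arrays, and a count over 7 genes does not describe the rest of the family.

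Among the treated groups, WRKY20 and WRKY41 were higher in combination than in arsenic roots, 2 of 7 genes, where 12% of all genes passed, 5.33% higher and 6.67% lower. WRKY22 was lower in combination than in hypoxia roots, 1 of 7 genes, where 3.46% passed, 1.88% higher and 1.58% lower. WRKY22 and WRKY29 were higher in hypoxia than in arsenic roots, 2 of 7 genes, where 22% passed, 9.67% higher and 12.3% lower.

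The direction of the calls over all genes depended on scaling. Array medians over all rows were lower on every hypoxia and combination array than on every control and arsenic array, so re-centring shifts the groups with hypoxia. With arrays re-centred on their medians, the median change of all genes went from 0.07 to 0.25 under hypoxia, from 0.09 to 0.20 in the combination and from 0.07 to 0.23 between hypoxia and arsenic roots. The 1791 rises and 2269 falls under hypoxia became 3654 and 1665, or 2324 and 1884 with quantile normalization again. In the combination 2158 rises and 2420 falls became 3108 and 2014. Between combination and arsenic roots 882 higher and 1104 lower genes became 1296 and 871. Between combination and hypoxia roots 311 higher and 262 lower became 187 and 311, or 252 and 336 with quantile normalization again. Between hypoxia and arsenic roots 1601 higher and 2037 lower became 3021 and 1319, or 2180 and 1581. Re-centring adds the same amount to the change of every gene under hypoxia, so rises could only grow. The 5 WRKY genes that rose there passed again, with changes from 0.91 for WRKY20 to 2.295 for WRKY41. That they passed is therefore no check on the scaling. With quantile normalization again, which does not shift all genes alike, 5 WRKY genes passed under hypoxia as well.

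Across the 12 arrays, Pearson's r between members ran from 0.74 for WRKY6 and WRKY41 to -0.40 for WRKY6 and WRKY47, and the flagellin pair WRKY22 and WRKY29 had r = 0.49. These are descriptions over arrays that share the 4 treatments.

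Likeness of pattern was taken as Pearson's r over the 12 arrays against the 1803 other genes with a symbol, so the values are the highest of many. The 3 most like WRKY6 were SEC1B (AT4G12120, r = 0.946), ALDH7B4 (AT1G54100, r = 0.928) and STN1 (AT1G07130, r = 0.913). Those most like WRKY20 were IYO (AT4G38440, r = 0.957), SPY (AT3G11540, r = 0.952) and INO80 (AT3G57300, r = 0.939). WRKY41 was matched by IQD23 (AT5G62070, r = 0.941), HMT-1 (AT3G25900, r = 0.933) and EXPA20 (AT4G38210, r = 0.928). For WRKY29 they were APPB1 (AT4G24640, r = 0.904), YAB5 (AT2G26580, r = 0.899) and ARPN (AT2G02850, r = 0.883). The matches of WRKY22 were the least close, with LCR21 (AT4G29283, r = 0.891), HL (AT5G54390, r = 0.877) and AGL24 (AT4G24540, r = 0.858).

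Genes that work with WRKY factors were taken from 8 lists with 212 entries, of which 9 were measured. The camalexin, ethylene synthesis and calcium sensor lists had no measured member, and MPK3, MPK4 and MPK6 were not analysed here. Of 55 MAP kinase cascade genes 2 were measured, and they moved in opposite directions. ATMPK13 (AT1G07880) had signals of 5.76, 5.66 and 5.44 in control roots and 6.89, 7.32 and 7.37 under hypoxia, where it rose by 1.57 (SE 0.16, adjusted p = 2.62e-05), and it rose by 1.33 in the combination (SE 0.16, adjusted p = 6.25e-05). ATMPK8 (AT1G18150), a kinase tied to wounding, fell by 1.02 under hypoxia (SE 0.14, adjusted p = 0.000279) and by 0.80 in the combination (SE 0.14, adjusted p = 0.00115). Neither passed with arsenate alone (-0.27 and -0.17).

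SAG101 (AT5G14930), a partner of EDS1 in immunity and the 1 measured gene of 33 in the salicylate list, rose by 0.55 under hypoxia (SE 0.18, adjusted p = 0.0428) and by 1.06 in the combination (SE 0.18, adjusted p = 0.000845), and 0.25 with arsenate did not pass. IKU1 (AT2G35230), a VQ protein of the kind that binds WRKY factors and 1 of 8 listed, rose by 0.44 in the combination (SE 0.15, adjusted p = 0.0411). Its changes of 0.16 with arsenate and 0.18 under hypoxia did not pass, nor did combination against arsenic (0.28, adjusted p = 0.271), combination against hypoxia (0.26, adjusted p = 0.371) or the interaction (0.09, adjusted p = 0.870). Of the 29 phosphate genes 2 were measured, the ferroxidases LPR1 and LPR2, which set root growth at low phosphate. LPR1 (AT1G23010) had signals of 4.48, 4.42 and 4.36 in control roots and 5.66, 6.77 and 6.01 with arsenate, a rise of 1.73 (SE 0.23, adjusted p = 0.000280). In the combination it stood at 4.49, 4.57 and 4.79, and the change of 0.19 did not pass. Combination roots stood below arsenic roots (-1.53, SE 0.23, adjusted p = 0.000959), but the LPR1 interaction of -1.17 did not pass (SE 0.33, adjusted p = 0.0826). LPR2 (AT1G71040) fell by 0.63 with arsenate (SE 0.18, adjusted p = 0.0293) and rose by 0.58 under hypoxia (SE 0.18, adjusted p = 0.0324). Its change of 0.35 in the combination did not pass (adjusted p = 0.174). For LPR2, combination roots stood above arsenic roots (0.97, SE 0.18, adjusted p = 0.00355), and the interaction of 0.39 did not pass (adjusted p = 0.487). The 3 measured of 17 low-oxygen genes were CML38, PDC2 and HRA1 (AT3G10040). All rose under hypoxia, by 2.54 (SE 0.73), 2.205 (SE 0.21) and 3.51 (SE 0.68), where 10.8% of all genes rose. None passed with arsenate, where 17.9% of all genes passed. The changes there were -1.73 for CML38 (SE 0.73, adjusted p = 0.128), 0.08 for PDC2 and 0.56 for HRA1. For CML38, 2 of 3 arsenic arrays lay below the first quartile. Arrays spread widely, with CML38 signals of 7.55, 4.88 and 3.94 in control roots and HRA1 signals of 5.32, 7.92 and 8.88 under hypoxia. In the combination, where 13% of all genes rose, PDC2 (2.13) and HRA1 (3.097) passed and CML38 (1.22, adjusted p = 0.239) did not.

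Rows that name a WRKY gene and its neighbour cannot be assigned to either, and were tested with all 38408 rows. WRKY53 (AT4G23810), a senescence regulator, had a pair of rows with 3xHMG-box2 (AT4G23800), which codes for a chromatin protein of dividing cells, and these went apart. On the row annotated with 3xHMG-box2 first, signals were 7.48, 7.40 and 7.39 in control roots, 6.75, 6.57 and 6.65 with arsenate, 5.82, 6.60 and 6.18 under hypoxia, and 5.80, 5.80 and 5.87 in the combination. Every treated array lay below the control arrays, and the row fell with arsenate (-0.77, adjusted p = 0.0156), hypoxia (-1.23, adjusted p = 0.000816) and the combination (-1.60, adjusted p = 9.91e-05).

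On the row annotated with WRKY53 first, signals were 7.17, 7.13 and 6.51 in control roots, 6.76, 6.92 and 6.63 with arsenate, 8.14, 7.36 and 6.66 under hypoxia, and 8.86, 7.76 and 6.79 in the combination. The groups overlapped with the control, and its changes of -0.17, 0.45 and 0.87 did not pass (adjusted p = 0.880, 0.547 and 0.233). The row of WRKY68 and AT3G62350 stayed between 2.31 and 2.94 and passed in no comparison. The row of ZAP1, the gene of WRKY1, and SCL21 rose by 0.42 with arsenate (SE 0.12, adjusted p = 0.0367), with signals of 9.31, 9.23 and 9.16 in control roots and 9.60, 9.75 and 9.61 with arsenate. Its changes of 0.33 in the combination (adjusted p = 0.0695) and 0.13 under hypoxia (adjusted p = 0.466) did not pass. Combination and arsenic roots differed by -0.09 (adjusted p = 0.718), with combination signals of 9.50, 9.58 and 9.59.

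**Figure D4:**
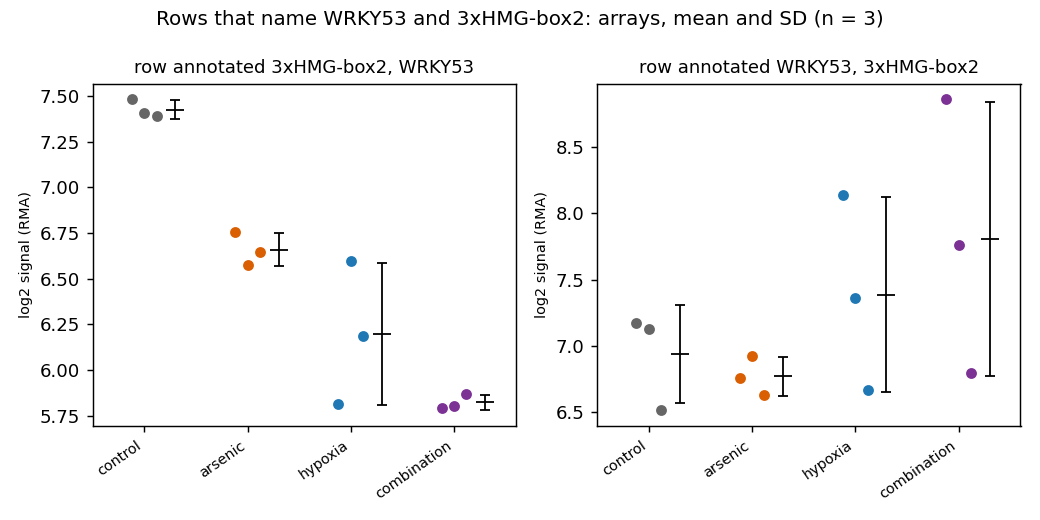
Log2 signal on each array (points, left to right replicate 1 to 3) of the rows that name both WRKY53 and 3xHMG-box2, by group, with the mean and SD of 3 arrays, on scales that do not start at 0. The row annotated with 3xHMG-box2 first fell in every treated group, and the row annotated with WRKY53 first spread from 6.79 to 8.86 in the combination and did not pass.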

How the data were processed

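The authors deposited log2 signals per probe set, made with RMA, with Expression Console (1.4, 1.4.1) and Transcriptome Analysis Console (3.1) named in the submitters' processing notes. These values were used as deposited. Of 38408 rows, 16722 named 1 gene in the probe annotation, and the row with the highest mean over the arrays was kept for each of 16550 genes. Coordinates are not printed, since the build behind the array is not given in the sources used here. All 12 arrays entered 1 fit (limma 3.58.1, R 4.3.3, lmFit and eBayes, no block), with two-sided tests of 6 pairwise comparisons and of the interaction (the effect of arsenate in hypoxic roots less that in other roots), and Benjamini-Hochberg adjustment within each comparison. The number of arrays limits the precision.

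The members and lists were chosen with earlier results of these data known. All 7 WRKY genes are named with every value. Of the lists, matched by symbol or synonym, measured members were named, and likeness was given for WRKY genes that passed in any comparison, with the 3 highest correlations. The list entries HUP9, HUP26, HUP29 and HUP54 matched no symbol, and PS2 was left out because that symbol belongs to another gene in the RefSeq table. Alternatives were a replicate block, other scalings, other variance models, array weights, the compared groups alone, a minimum mean signal of 4 in 1 group, all rows, and each array left out.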

Additional observations from a re-analysis of the deposited data

Results flagged for a closer look

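The effect of arsenate on WRKY22 differed between roots with and without hypoxia by the test of that difference. The interaction was -1.10 on the log2 scale (SE 0.24, limma adjusted p = 0.0266), from a change of -0.37 with arsenate in roots that were not hypoxic and of -1.48 in hypoxic roots. The call was lost in 7 of 12 fits without 1 array (adjusted p from 0.0524 to 0.0832) and with all rows tested (0.0525). The other 6 WRKY genes did not pass in this fit, but WRKY29 passed with array weights (-1.06, adjusted p = 0.0444), and WRKY6 passed in 1 of the other settings.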

How the results depend on the processing

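Over 49 pairs of a WRKY gene and a comparison, other settings gave 349 values of the same direction and call, 16 that gained a call, 7 that lost one and 6 of opposite sign. Leaving out 1 array gave 527, 6, 35 and 20. The count of WRKY genes past the threshold with arsenate went from 2 to 4 with array weights. It was 3 with quantile normalization again, with trend and robust variances and with dim genes left out. In the combination the count went from 5 to 4 with re-centring and with all rows tested. For combination against arsenic it went to 1 with all rows tested. For combination against hypoxia it went to 2 with trend and robust variances and with dim genes left out. For hypoxia against arsenic it went to 1 with all rows tested. That count rose to 3 with re-centring, quantile normalization again, trend and robust variances, array weights and dim genes left out. The interaction gave 2 genes with array weights and 0 with all rows tested. With 1 array left out the counts ran from 1 to 3 with arsenate, 3 to 5 in the combination, 0 to 2 for combination against arsenic, 1 to 2 for combination against hypoxia, 1 to 3 for hypoxia against arsenic and 0 to 1 for the interaction, and stayed at 5 under hypoxia. WRKY41 passed between hypoxia and arsenic roots in 7 of 8 other settings, but in only 4 of 12 fits without 1 array.

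No result that passed changed sign. Of those that did not pass, re-centring turned WRKY42 in the combination to 0.053 and against arsenic to 0.096, WRKY6 between hypoxia and arsenic to 0.041, and the WRKY20 interaction to -0.081. Quantile normalization again turned the last to -0.030, and array weights turned the WRKY41 interaction to 0.014. Without 1 array, WRKY42 ran from -0.17 to 0.078 with arsenate, -0.00092 to 0.26 under hypoxia, -0.17 to 0.077 in the combination and -0.051 to 0.084 for combination against arsenic. WRKY6 ran from -0.035 to 0.22 for combination against arsenic and -0.26 to 0.045 for hypoxia against arsenic. WRKY20 ran from -0.024 to 0.24 for hypoxia against arsenic and -0.10 to 0.16 for the interaction. WRKY41 ran from -0.0090 to 1.01 for combination against hypoxia and -0.67 to 0.35 for the interaction. WRKY42 has no value with dim genes left out, and the interaction none with the compared groups alone. The causes were not tested.

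Replicate numbers recur in the labels. Same-numbered arrays of different groups had correlations of their deviations from -0.08 to 0.31, 12 of 18 under 0.1. For replicate 1 they ran from 0.07 to 0.31, and 6 of 12 arrays correlated best with their own number. These values do not settle whether arrays of the same number share a source of variation. WRKY6 and WRKY41 were highest on replicate 1 in 4 of 4 groups. With a replicate block the interaction had 2 genes, WRKY22 and WRKY6 (-0.94, adjusted p = 0.0405), WRKY41 passed between hypoxia and arsenic roots (0.00191) and WRKY29 no longer did (0.0595). Over all genes, array weights called 4700 with arsenate, 3527 for combination against arsenic and 886 for the interaction, against 2965, 1986 and 457. With all rows tested, 38408 in place of 16550 genes, 5113 were called with arsenate and 512 for the interaction. Combination against hypoxia gave 573 genes, 30 with those groups alone. Without 1 array the counts ran from 1889 to 3239 with arsenate, 1065 to 2197 for combination against arsenic, 101 to 1000 for combination against hypoxia, 2168 to 3812 for hypoxia against arsenic and 213 to 502 for the interaction.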
